A study of Homo sapiens with 4 samples.

Results

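HOX genes encode transcription factors with a homeodomain, the DNA-binding domain that reads short sites with a TAAT core, and they lie in the clusters HOXA, HOXB, HOXC and HOXD. Within a cluster the gene number gives the paralogue group and the order along the chromosome: low numbers act towards the head of the embryo and high numbers towards the tail, and many adult tissues keep part of this code. Polycomb proteins keep silent HOX genes closed, Trithorax proteins keep active ones open, and HOX proteins bind DNA together with PBX and MEIS cofactors.

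The genes were 38 HOXA, HOXB, HOXC and HOXD genes listed by name, and 28 of them had a probe set that the platform annotation assigns to 1 gene, of 19775 genes named in this way on the array. The 28 were 1 HOXA, 10 HOXB, 9 HOXC and 8 HOXD genes. Of the other 10, HOXA3, HOXA4, HOXA5, HOXA6, HOXA7, HOXA9, HOXA10, HOXA11 and HOXA13 were not analysed here, and HOXD3 shared its 3 probe sets with HOXD4. Where a gene had several, the one with the highest RMA mean over both populations stood for it. The cells were PLC8024, a human hepatocellular carcinoma line, from which CD133+ and CD133- cells were separated by flow cytometry. CD133 is a surface glycoprotein by which liver tumour cells with high tumour-forming capacity are often enriched. Each population was deposited once as RMA values, which are on a log2 scale, and once as MAS5 intensities, which are linear. There was no replicate, so every difference below is a difference between single columns of a processing, with no error between sorts or cultures and no test. The sources used here do not say if one hybridised array gave both columns of a population, so where RMA and MAS5 differ, processing and array cannot be told apart.

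No HOX gene differed by 2-fold between the populations in both processings, and most HOX genes had nearly the same RMA value in CD133+ and CD133- cells. A gene was taken as above the floor when its higher RMA value was at or over the column median of its population, which was 5.16 in CD133+ and 5.14 in CD133-. Of the 28 HOX genes 17 were above the floor: 7 HOXB, 8 HOXC, 2 HOXD and 0 HOXA genes. Of these 17, 0 passed 2-fold in both RMA and MAS5 towards CD133+ and 0 towards CD133-, where 2.25% of the 13116 genes above the floor were higher and 1.09% lower. With counts of 0 against shares this small, the HOX count does not stand out from the array. In RMA alone the HOX counts were also 0 higher and 0 lower, against 2.39% and 1.31% of all genes. In sorted populations of this kind, fewer cells with a transcript and less of it per cell cannot be told apart, and the purity of the sort is not given in the labels.

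The median RMA difference, CD133+ minus CD133-, was 0.07 over the 17 HOX genes and 0.00 over all genes above the floor. The 17 differences ran from -0.54 for HOXD1 to 0.74 for HOXC4, and all of them lay inside the central 95% of all genes, which ran from -0.78 to 0.96. Of the 17, 9 were above 0, 7 below 0 and 1 was equal in both populations, so that 52.9% were above 0, against 48.2% of all genes.

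**Figure D1:**
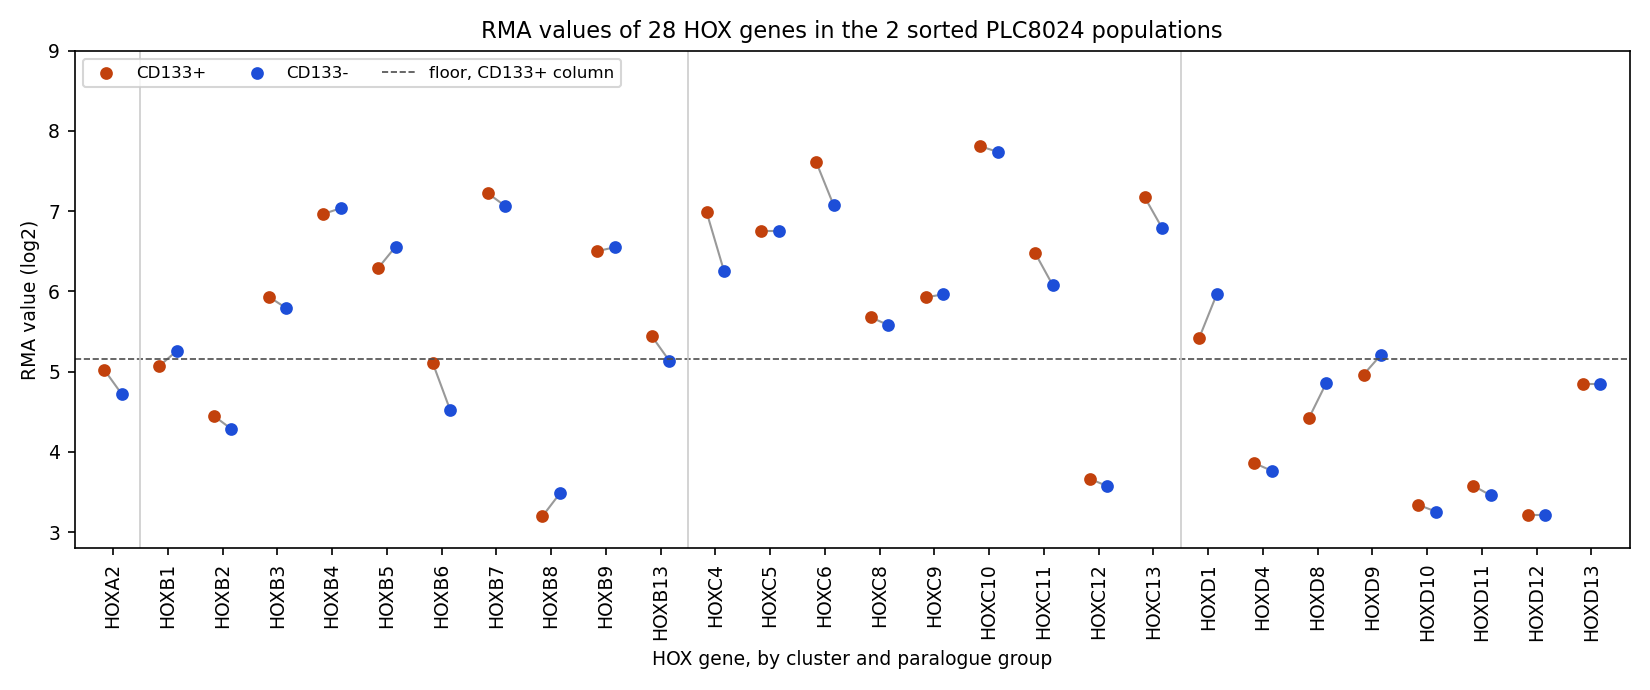
RMA values (log2, y axis) of the 28 HOX genes in CD133+ (orange, left of each pair) and CD133- (blue, right), ordered by cluster and paralogue group, with the floor of the CD133+ column dashed. The pairs lie close together, with the widest gaps above the floor at HOXC4 and HOXC6, higher in CD133+, and at HOXD1, lower in CD133+.

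Below, 2 sequences are shown because they belong to the genes at both ends of this range: the RefSeq promoter window that HOXC4 shares with HOXC5, and that of HOXD1. Each window runs from 250 bases before to 50 bases after the annotated start on GRCh38.p14, and capitals mark the homeodomain core TAAT or its reverse complement ATTA.
HOXC4 and HOXC5, chr12:54016638-54016937, plus strand: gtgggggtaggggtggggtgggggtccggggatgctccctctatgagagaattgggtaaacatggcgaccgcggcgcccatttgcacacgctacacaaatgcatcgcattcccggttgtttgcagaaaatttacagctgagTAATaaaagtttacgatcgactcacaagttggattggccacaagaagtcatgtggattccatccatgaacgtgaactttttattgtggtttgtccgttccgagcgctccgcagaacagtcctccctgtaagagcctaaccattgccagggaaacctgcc
HOXD1, chr2:176188418-176188717, plus strand: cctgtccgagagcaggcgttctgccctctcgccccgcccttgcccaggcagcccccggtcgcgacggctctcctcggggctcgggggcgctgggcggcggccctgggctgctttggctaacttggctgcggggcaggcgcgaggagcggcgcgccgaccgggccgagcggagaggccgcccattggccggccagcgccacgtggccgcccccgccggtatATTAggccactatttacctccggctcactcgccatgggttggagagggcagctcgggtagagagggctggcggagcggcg
Both windows hold the core 1 time, and 50.3% of 34796 distinct RefSeq promoter windows of the same 300 bases hold it at least 1 time on either strand. The nuclear receptor half-site AGGTCA and the TATA sequence TATAAA, searched on both strands, are in neither window, and 13.8% and 11.6% of all windows hold them. The HOXD1 window has a GC content of 74.3% with 36 CG dinucleotides, and the HOXC4 and HOXC5 window 51.7% with 15, beside medians of 58.7% and 14. These matches describe the letters only. The array reports on transcripts and not on these windows.

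In the HOXC cluster most genes above the floor had a higher RMA value in CD133+. Of these 8 genes 6 had a positive RMA difference, 1 a negative difference and 1 was equal, and the median was 0.24 in RMA and 0.49 in MAS5. Of all genes above the floor 48.2% had a positive RMA difference, with a median of 0.00. With no floor, over 9 HOXC genes, the HOXC median was 0.10 in RMA. Without _x_at and _s_at probe sets, which leaves out HOXC6 and HOXC13, it was 0.08 in RMA. HOXC4, which helps to pattern the neck and is also used in lymphocytes, had an RMA value of 6.99 in CD133+ against 6.25 in CD133- cells. Its MAS5 intensities were 465 in CD133+ and 198 in CD133-. HOXC4 was thus 1.67-fold higher in CD133+ by RMA and 2.35-fold by MAS5, and 6.8% of all genes above the floor had an RMA difference at least this large in either direction. With a threshold of 1.5-fold in both processings HOXC4 was the 1 HOX gene counted as higher and 0 were counted as lower, where 5.32% of all genes were higher and 4.17% lower.

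HOXC6, a thoracic patterning gene often studied in prostate and breast tumours, had an RMA value of 7.62 in CD133+ against 7.08 in CD133- and MAS5 intensities of 932 in CD133+ and 556 in CD133-. HOXC6 was 1.45-fold higher in CD133+ by RMA and 1.68-fold by MAS5, and 13.1% of all genes had an RMA difference at least as large. HOXC5 lies between HOXC4 and HOXC6, and transcripts of these genes are known to share a noncoding first exon. It did not lean with its neighbours: its RMA values were equal, at 6.76 in CD133+ and 6.76 in CD133-, while its MAS5 intensities were 141 in CD133+ and 325 in CD133-. The processings thus placed HOXC5 at a log2 difference of 0.00 and of -1.20.

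The posterior HOXC genes had smaller RMA differences than HOXC4 and HOXC6, as did the central genes HOXC5 and HOXC8. HOXC11, which acts in hindlimb and motor neuron patterning, had an RMA value of 6.48 in CD133+ against 6.08 in CD133- and MAS5 intensities of 172 in CD133+ and 132.8 in CD133-. HOXC13, a regulator of hair keratin genes, had an RMA value of 7.18 in CD133+ against 6.79 in CD133- and MAS5 intensities of 267 in CD133+ and 175 in CD133-. Both were about the same size, with RMA differences of 0.40 and 0.39, which 22.6% and 23.7% of all genes reached. HOXC10, a lumbar and hindlimb patterning gene, had an RMA value of 7.81 in CD133+ against 7.74 in CD133- and MAS5 intensities of 868 in CD133+ and 897 in CD133-. HOXC9, a regulator of thoracic motor neuron fate, had an RMA value of 5.93 in CD133+ against 5.96 in CD133- and MAS5 intensities of 208 in CD133+ and 228 in CD133-. For these middle genes the processings placed both populations within 0.13 of each other on the log2 scale.

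HOXC8, which patterns thoracic vertebrae and ribs, showed the widest gap between processings among the HOX genes above the floor. Its RMA value was 5.68 in CD133+ against 5.58 in CD133-, a difference of 0.10, while its MAS5 intensities were 63.7 in CD133+ and 10.8 in CD133-, a log2 difference of 2.55. Both intensities are under the MAS5 medians of 86.0 in CD133+ and 86.1 in CD133-. HOXC12 was below the floor, with an RMA value of 3.66 in CD133+ against 3.57 in CD133-.

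**Figure D2:**
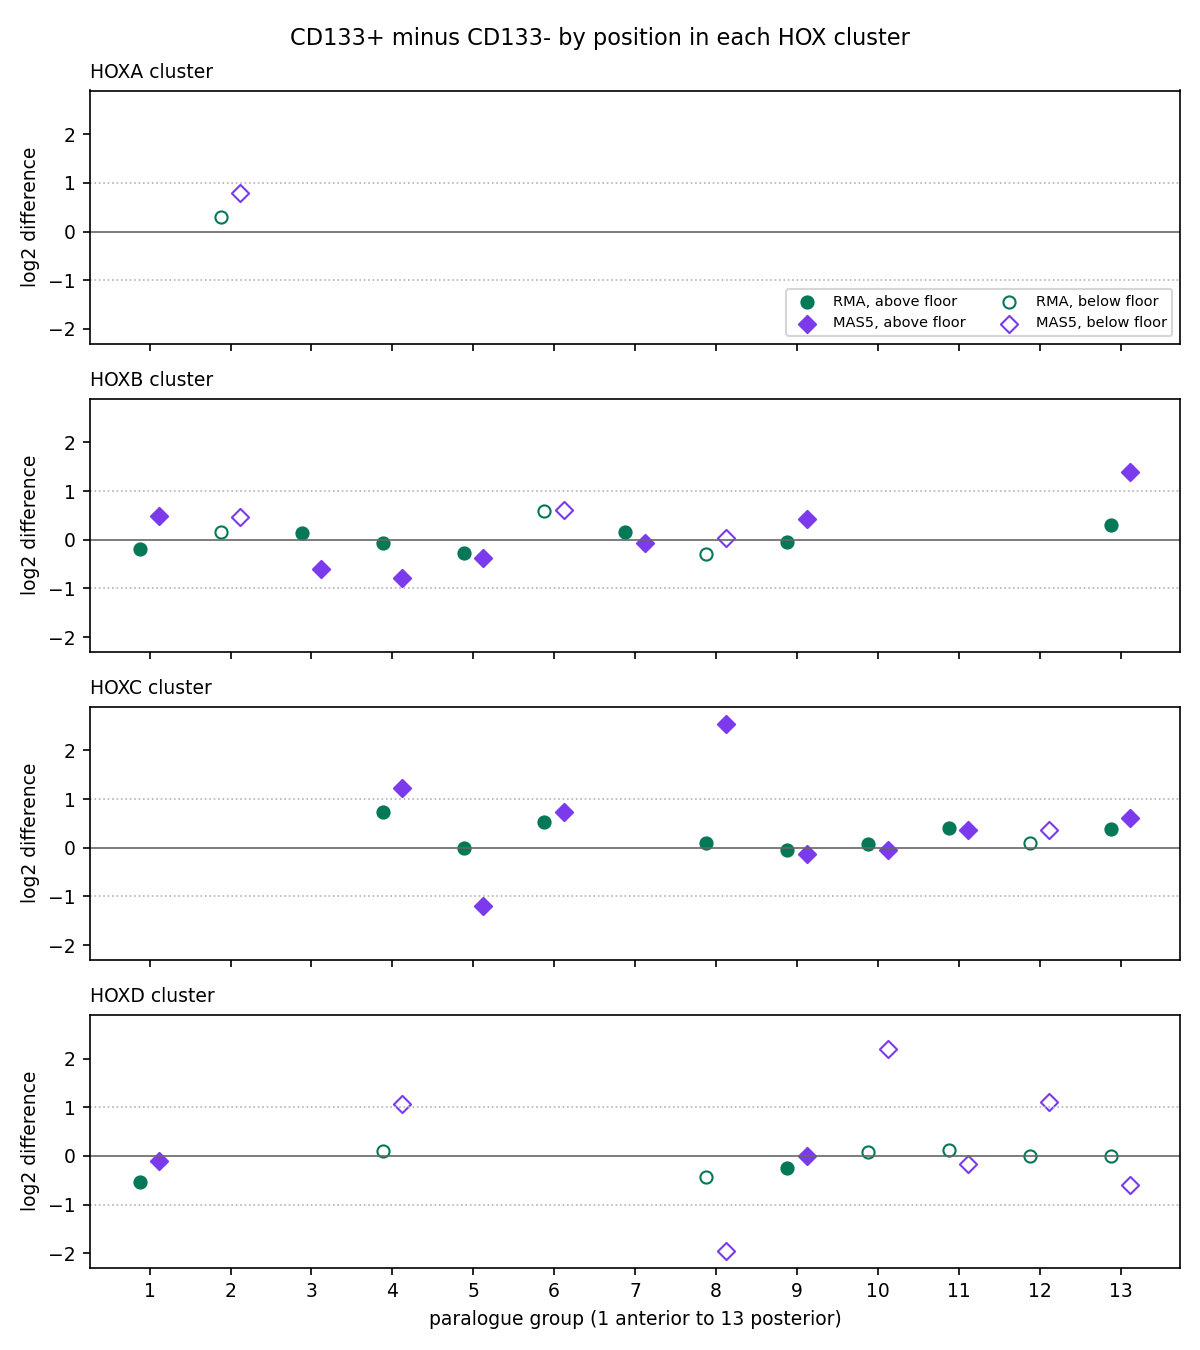
Log2 differences, CD133+ minus CD133-, against paralogue group in each HOX cluster, from RMA (green circles) and MAS5 (purple diamonds), filled where the gene is above the floor, with 2-fold dotted. RMA differences stay between the dotted lines in every cluster, while 8 MAS5 differences lie outside them.

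The HOXB cluster showed no common direction. Of its 7 genes above the floor 3 had a positive and 4 a negative RMA difference, from -0.27 for HOXB5 to 0.31 for HOXB13, with a median of -0.05. Starting from the anterior end, HOXB1, which sets segment identity in the hindbrain, had an RMA value of 5.07 in CD133+ against 5.26 in CD133-. Its CD133+ RMA value was under the floor, and its MAS5 intensities were 27.5 in CD133+ and 19.6 in CD133-. HOXB3, a hindbrain and neck patterning gene, had an RMA value of 5.94 in CD133+ against 5.79 in CD133- and MAS5 intensities of 47.4 in CD133+ and 71.7 in CD133-. In the probe sets that stood for them, both genes thus had opposite signs in RMA and MAS5. The other probe set of HOXB3, also above the floor, was lower in CD133+ in both, by differences of -0.62 in RMA and -0.47 in MAS5. That of HOXB1, below the floor, was lower in CD133+ in both too, by differences of -0.19 in RMA and -2.84 in MAS5.

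HOXB4, known for expanding blood stem cells when overexpressed, had an RMA value of 6.97 in CD133+ against 7.04 in CD133- and MAS5 intensities of 196 in CD133+ and 338 in CD133-. HOXB5, which acts in the enteric nervous system and in vessels, had an RMA value of 6.29 in CD133+ against 6.56 in CD133- and MAS5 intensities of 158 in CD133+ and 206 in CD133-. In the probe sets that stood for the genes, these were the HOXB genes above the floor that were lower in CD133+ in both processings, by differences of -0.07 and -0.27 in RMA and -0.78 and -0.38 in MAS5. The other probe set of HOXB5, also above the floor, was higher in CD133+ in both, at 0.10 on the RMA scale and 0.23 as a MAS5 log2 ratio. HOXB7, overexpressed in several carcinomas, had an RMA value of 7.23 in CD133+ against 7.07 in CD133- and MAS5 intensities of 492 in CD133+ and 513 in CD133-. HOXB9, a thoracic and mammary patterning gene, had an RMA value of 6.50 in CD133+ against 6.55 in CD133- and MAS5 intensities of 260 in CD133+ and 193 in CD133-. In the probe sets that stood for HOXB7 and HOXB9, the signs again differed between processings. Further HOXB7 probe sets, also above the floor, had RMA differences of 0.21 and -0.08. Their MAS5 log2 differences were 0.008 and -0.36, with the same signs.

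HOXB13, a posterior gene with a lasting role in the prostate, was the one HOXB gene above the floor that was higher in CD133+ in both processings by the probe set that stood for it. Its RMA value was 5.44 in CD133+ against 5.14 in CD133-, where the CD133- value was under the floor, and its MAS5 intensities were 77.5 in CD133+ and 29.5 in CD133-. Its other probe set, below the floor, had an RMA value of 4.64 in CD133+ against 3.82 in CD133-. HOXB2, HOXB6 and HOXB8 were below the floor. HOXB6, a gene of the thoracic region, had the largest RMA difference among the 11 HOX genes below it, 0.59, from an RMA value of 5.11 in CD133+ against 4.52 in CD133-, and MAS5 intensities of 153 in CD133+ and 100.01 in CD133-, while its other probe set was equal at 3.84 in both populations.

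The HOXD cluster was mostly below the floor. HOXD1 and HOXD9 were above it, and both had negative RMA differences. HOXD1, the most anterior gene of its cluster, had an RMA value of 5.43 in CD133+ against 5.97 in CD133-, a difference of -0.54 that 12.9% of all genes reached in size. Its MAS5 intensities were 108 in CD133+ and 116 in CD133-, and its other probe set, below the floor, had an RMA value of 3.38 in CD133+ against 3.01 in CD133-, in the opposite direction. HOXD9, a limb and lower spine patterning gene, had an RMA value of 4.96 in CD133+ against 5.21 in CD133- and MAS5 intensities of 71.0 in CD133+ and 71.5 in CD133-, so that its CD133+ RMA value was under the floor.

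Among the HOXD genes below the floor, 4 differed by at least 2-fold in MAS5 only. The share of all genes below the floor that did so was not worked out, so this count is not read as a trait of HOXD. Over all named genes with a higher intensity under 100, the MAS5 log2 difference had an SD of 1.51. HOXD8 had MAS5 intensities of 63.9 in CD133+ and 248 in CD133-, with an RMA value of 4.42 in CD133+ against 4.86 in CD133-. HOXD4, an upper spine patterning gene, had intensities of 47.3 in CD133+ and 22.4 in CD133-, and an RMA value of 3.86 in CD133+ against 3.77 in CD133-. HOXD10, a limb gene, had intensities of 19.9 in CD133+ and 4.36 in CD133-, and an RMA value of 3.34 in CD133+ against 3.26 in CD133-. HOXD12, a digit gene, had intensities of 3.67 in CD133+ and 1.70 in CD133-, with equal RMA values of 3.21. HOXD11 and HOXD13, which shape forearm and digits, had RMA differences of 0.12 and 0.00. The 3 probe sets that HOXD3 and HOXD4 share had RMA differences of 0.27, 0.17 and -0.05, with RMA values up to 3.20 in CD133+ and 3.03 in CD133-.

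HOXA2, a patterning gene of the branchial arches and outer ear, was the HOXA gene with a named probe set and was below the floor. It had an RMA value of 5.02 in CD133+ against 4.72 in CD133- and MAS5 intensities of 196 in CD133+ and 113 in CD133-. Over all 11 HOX genes below the floor, RMA differences ran from -0.44 to 0.59 with a median of 0.09.

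By position along the clusters, the genes above the floor had median RMA differences of -0.19 over 3 anterior genes (groups 1 to 3), 0.10 over 7 central genes (groups 4 to 8) and 0.07 over 7 posterior genes (groups 9 to 13). The anterior value rests on HOXB1, HOXB3 and HOXD1, since the HOXC genes start at group 4. Position and cluster are therefore mixed in these medians and cannot be told apart.

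MAS5 gave a wider range of HOX differences than RMA. In MAS5 alone 3 of the 17 HOX genes above the floor were at least 2-fold higher in CD133+, HOXC4, HOXC8 and HOXB13, and 1 was lower, HOXC5. Of all genes above the floor 7.65% were higher and 5.60% lower by this rule. RMA and MAS5 had the same sign in 11 of the 17 HOX genes. Over all named genes, the MAS5 log2 difference had an SD of 1.51 where the higher intensity was under 100, of 0.99 from 100 to 500 and of 0.58 at 500 or more. Of the 28 HOX genes 13, 12 and 3 fell into these ranges, and 5, 3 and 0 of them differed by 2-fold in MAS5. The share of all genes passing 2-fold in each range was not worked out, so these counts are not read as a trait of HOX genes.

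**Figure D3:**
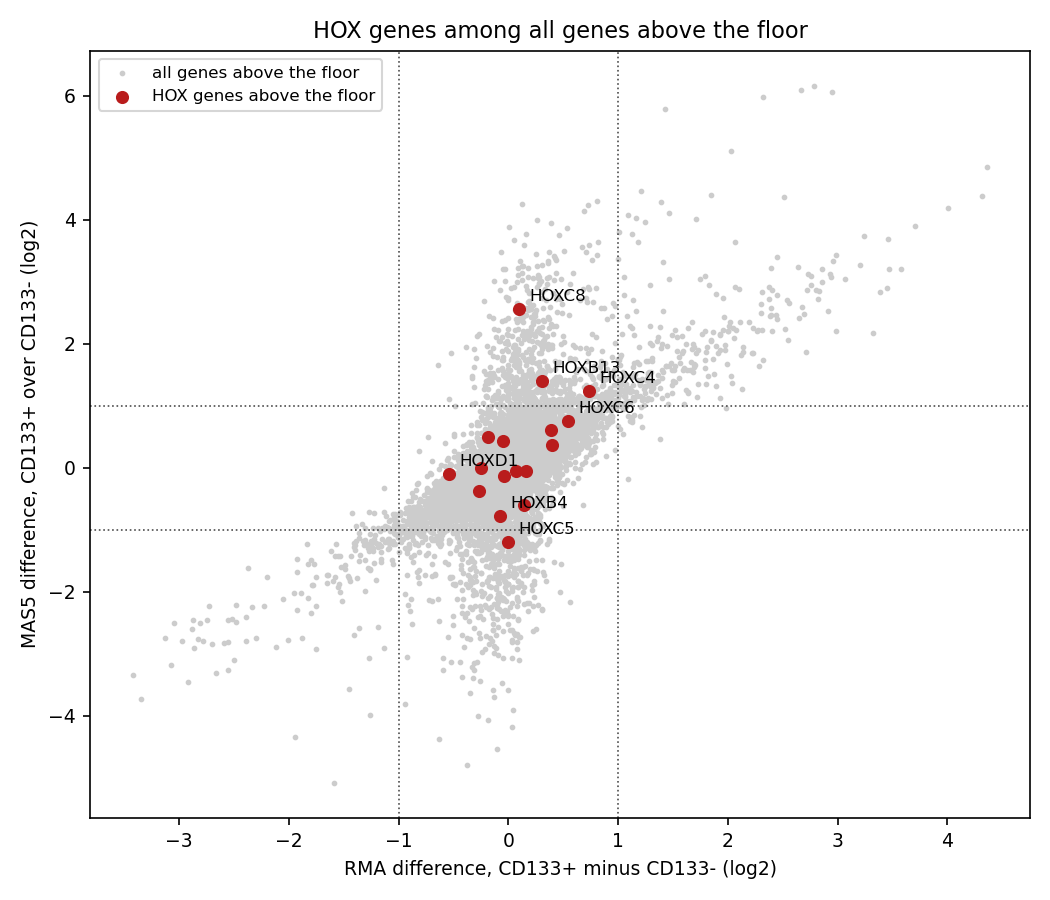
MAS5 log2 difference (y axis) against RMA difference (x axis), CD133+ over or minus CD133-, for the 13116 genes above the floor (grey) and the 17 HOX genes among them (red), with 2-fold dotted on both axes. No HOX gene lies beyond the dotted lines on the x axis, and HOXC8 lies high on the y axis with an RMA difference of 0.10.

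Probe sets of the same HOX gene often differed from each other. Of the 28 HOX genes 13 had more than 1 probe set, and in 5 of them, HOXB3, HOXB5, HOXB7, HOXD1 and HOXD10, the RMA differences fell on both sides of 0. HOXD1 had the widest range, 0.92, from -0.54 to 0.37. The other probe set of HOXB3 had a difference of -0.62, against 0.14 for the one that stood for the gene, and that of HOXB5 had 0.10 against -0.27. Over the 6170 genes for which a further probe set passed the floor, the gap between the RMA differences of 2 probe sets had an SD of 0.35. The RMA differences of HOXC4, HOXC6, HOXD1, HOXC11 and HOXC13 exceeded this SD, 5 of 17 or 29.4%, where 27.3% of all genes above the floor did. This spread is between probe sets of the same columns and is no error for a difference between the populations. Its source was not tested. HOXC4, HOXC6, HOXC11 and HOXC13 had 1 named probe set each, so no other probe set bears on them.

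**Figure D4:**
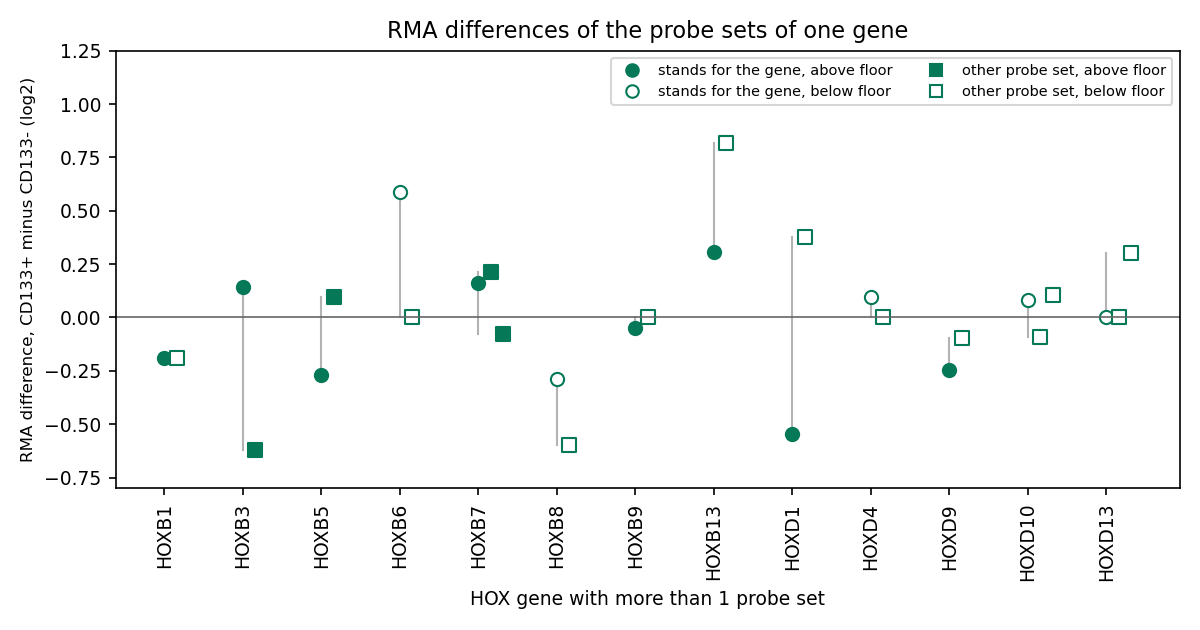
RMA differences, CD133+ minus CD133- (log2, y axis), of every named probe set of the 13 HOX genes with more than 1, circles for the probe set that stands for the gene, squares for the others, filled above the floor. The probe sets of HOXD1 and HOXB3 lie on opposite sides of 0.

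Exactly equal RMA values in both populations occurred in 7 of 44 HOX probe sets, or 15.9%, against 5.87% of all 54675 probe sets. This comparison is not matched for signal level. Of the 44, 21 were above the floor, and the equal probe sets of HOXB6, HOXB9, HOXD4, HOXD12 and HOXD13 were below it. Of all 19775 named genes 919 had equal values, 249 of them among the 13116 above the floor, so most lay below it. Among the 7 HOX probe sets were those that stood for HOXC5, HOXD12 and HOXD13. Of the 17 HOX genes above the floor HOXC5 was the 1 with equal values, and 1.90% of all genes above the floor had them.

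Of the genes that act with HOX proteins or on HOX clusters, 0 were counted as higher or lower in CD133+ by the 2-fold rule in both processings. By this rule 2.25% of all genes above the floor were higher and 1.09% lower, so counts of 0 in lists this short do not stand out. Of 7 PBX, MEIS and PKNOX cofactor genes above the floor the extremes pointed in opposite directions. PBX2, a HOX partner, had an RMA value of 8.48 in CD133+ against 7.57 in CD133-, a difference of 0.92, and MAS5 intensities of 1056 in CD133+ and 497 in CD133-, although its 4 probe sets ran down to -0.19. MEIS2, also a partner, had an RMA value of 5.84 in CD133+ against 6.73 in CD133-, a difference of -0.89, and MAS5 intensities of 280 in CD133+ and 598 in CD133-. Both pass 2-fold in MAS5 and miss it in RMA. The median over the 7 was -0.05, and MEIS1 and PBX3 had RMA differences of 0.36 and -0.08.

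Of 19 Polycomb genes above the floor 8 had a positive and 11 a negative RMA difference, with a median of -0.01. The largest RMA differences were -0.59 for SUZ12, a core subunit of the complex that methylates histone H3 at closed HOX genes, and 0.52 for PCGF2, a subunit of the complex that ubiquitinates histone H2A. PHF19 and JARID2, accessory subunits of the methylating complex, had 0.37 and 0.35. Other probe sets turned the direction of 3 of these genes, with ranges from -0.59 to 0.21 for SUZ12, from -0.08 to 0.37 for PHF19 and from -0.39 to 0.35 for JARID2. Of 14 Trithorax and H3K27 demethylase genes 9 were negative and 4 positive, with a median of -0.10. WDR5, KMT2A and KMT2B, which belong to histone methyltransferase complexes that maintain active HOX genes, had -0.49, -0.41 and -0.38, and DOT1L had -0.29. The 11 probe sets of KMT2A ran from -0.49 to 0.37, those of KMT2B from -0.38 to 0.10 and those of DOT1L from -0.29 to 0.20.

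Of 14 retinoid and other upstream regulators 8 were positive and 6 negative, with a median of 0.13. CYP26A1, which degrades retinoic acid, an inducer of anterior HOX genes, had an RMA value of 6.08 in CD133+ against 5.14 in CD133-, a difference of 0.94, and MAS5 intensities of 237 in CD133+ and 102 in CD133-. GDF11, a TGF-beta family ligand that promotes posterior HOX expression, had 0.42, with probe sets from -0.30 to 0.64. The retinoid receptor gene RXRA and the homeobox gene CDX4 had -0.37 and -0.35. CDX4 had the opposite sign in MAS5, at 0.36, from intensities of 23.5 in CD133+ and 18.3 in CD133-. Its RMA value in CD133+, 4.96, was under the floor.

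Genes that flank the clusters had a median of -0.01 over 18 above the floor. CALCOCO2 beside HOXB had an RMA difference of -0.83, and SNX10 and TAX1BP1 on the 2 sides of HOXA had -0.69 and -0.61, while TTLL6 had 0.36. Beside HOXC the flanking genes CALCOCO1, SMUG1, CBX5 and HNRNPA1, chosen after their values were seen, had 0.15, 0.28, 0.17 and 0.05. Other probe sets turned the direction of SMUG1 and CBX5, down to -0.22 and -0.10. NFE2, also beside HOXC, was below the floor with a difference of 0.00. Over all 18 flanking genes above the floor 8 were positive and 10 negative. Of 11 named long noncoding RNAs of the clusters 2 were above the floor, HOTTIP and HOXA-AS2, with RMA differences of 0.10 and -0.08. HOTAIR, which is transcribed within HOXC and binds Polycomb proteins, was below it, with an RMA value of 2.81 in CD133+ against 2.27 in CD133- (chosen after its values were seen).

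Other homeobox genes of the Antennapedia class, the wider family that HOX genes belong to, were set beside them. Of the 45 named 23 were above the floor, with a median RMA difference of -0.03. In either direction 0 were counted, where 2.25% of all genes were higher and 1.09% lower, so this count does not stand out. Their differences ran from -0.91 for DLX4 to 0.56 for NKX2-1, which had the opposite sign in MAS5, at -2.17, and probe sets from -0.08 to 0.56 in RMA.

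The sort and the cell type were checked in the same columns. PROM1, the gene of CD133, had an RMA value of 10.35 in CD133+ against 6.04 in CD133-. Of 11 hepatocyte lineage markers 10 were named and all 10 were above the floor. Of these, 3 were counted as lower in CD133+, where 1.09% of all genes above the floor were. They were ALB, AFP and APOA1, with RMA differences of -3.42, -2.78 and -1.80. Probe sets of ALB ran from -3.42 to -0.22 and those of APOA1 from -1.87 to -0.66. KRT18 came next in size, at -0.33. Of the 10 markers 8 had a negative and 2 a positive RMA difference, up to 0.28, with a median of -0.26. Of 9 named markers of leukocytes, endothelium, fibroblasts and erythroid cells 4 were above the floor, and PECAM1, an adhesion gene of endothelium and blood cells, was the 1 counted, lower in CD133+ with an RMA value of 6.11 in CD133+ against 7.87 in CD133-. Its 5 probe sets ran from -1.96 to 0.17 in RMA difference. The MAS5 intensities of the 9 summed to 1334 in CD133+ and 1666 in CD133-, and without PECAM1 the other 8, 5 of them below the floor, summed to 1066 in CD133+ and 753 in CD133-, so the direction of the sum rests on PECAM1. CD3E, COL1A1 and HBB were also above the floor, with RMA differences of 0.07, 0.19 and 0.00. COL1A1 had MAS5 intensities of 595 in CD133+ and 430 in CD133-. PTPRC, the defining leukocyte marker, chosen after its values were seen, was below the floor. It had an RMA value of 3.01 in CD133+ against 2.94 in CD133-. The part of other cell types in the HOX values was not tested.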

How the data were processed

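Total RNA of the sorted populations was measured on oligonucleotide arrays of 54675 probe sets. The deposited MAS5 columns hold linear intensity values and the deposited RMA columns log2 values, per the labels. Per the submitters' processing notes, MAS5, RMA and GCOS were used. Their versions, the background steps and the set of arrays normalized together were not given in the sources used here. RMA and MAS5 were treated as 2 processings of 1 sample per population, never as replicates.

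Gene names came from the array's platform annotation at GEO, with symbols updated through gene IDs in the RefSeq table of GRCh38.p14. In all 41097 had 1 gene, 1801 several and 11777 none or were unlisted. Those with several genes were left unnamed. The files held no detection calls, so a floor was used instead. No test was run, since each processing had 1 column per population, and the number of arrays, not given in the sources used here, limits precision. The values of different probe sets were not ranked against each other.

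The HOX genes and the 9 other lists, 2 of which share EVX1 and CDX genes with the Antennapedia list, were chosen with earlier results of these data known. Members above the floor, or with a 2-fold difference in either processing, were to get their values. From each other list at most 4 genes were named, those above the floor that differed most in RMA, and exceptions are marked. Alternatives were MAS5 alone, 50 added to MAS5, other floors, other probe set choices and other folds. Promoter windows came from RefSeq, GRCh38.p14. The counting was tested on simulated data. Python 3.11.15, pandas 2.3.3, NumPy 2.4.6 and matplotlib 3.10.9 were used.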

Additional observations from a re-analysis of the deposited data

How the results depend on the processing

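The counts of HOX genes at least 2-fold higher or lower in CD133+ were 0 and 0 in the main setting over 17 genes. They were also 0 and 0 with 50 added to MAS5 over 17 genes, and with no floor over all 28 genes. The same held with the floor at the 75th percentile over 6 HOX genes, and with the median over probe sets over 13. Without _x_at and _s_at probe sets, over 12 HOX genes, and in RMA alone, over 17, they were 0 and 0 too. In these settings 1.69% to 2.4% of all genes were higher and 0.779% to 1.35% lower, so counts of 0 do not stand out. In MAS5 alone the HOX counts were 3 higher and 1 lower, against 7.65% and 5.6% of all genes. At 1.5-fold they were 1 higher and 0 lower, against 5.32% and 4.17%. The HOX median, 0.07, ran from -0.02 to 0.27 over the alternatives, the HOXB median from -0.07 to 0.05 and the HOXC median from 0.08, without _x_at and _s_at probe sets, which leaves out HOXC6 and HOXC13, to 0.49 in MAS5 alone. The HOXD median of -0.40 over 2 genes was 0.00 with no floor, over 8 genes, and -0.038 with 50 added to MAS5. Under the 75th percentile floor and under the median over probe sets no HOXD gene was left above the floor. For single HOX genes, 5 of 17 differences turned sign in MAS5 alone and 5 of 17 with 50 added, and 2 of 13 without _x_at and _s_at probe sets. The cause was not tested. With 1 deposited column per population in each processing, no sample could be left out, and signal near the array's median limits what can be said of HOXB1, HOXB13, HOXC8 and HOXD9.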
